A study of Mus musculus with 16 samples.

Results

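The comparison examined here is the Sirt1 knockout difference averaged over a low fat and a high fat diet in mouse white adipose tissue. It used all 16 of the 16 arrays of the study, 8 from knockout and 8 from wild-type mice. For each gene, the knockout minus wild-type difference was taken on each diet, 4 against 4 arrays, and the mean of both differences was tested. All mice were of the C57BL6/J strain. The knockout mice carried the FABP4-Cre transgene, a Cre recombinase under control of the FABP4 (aP2) gene promoter, and the labels call them SIRT1 knockouts. The wild-type mice carried no Cre transgene. No group had the transgene with an intact Sirt1, so an effect of the transgene and one of the deletion cannot be told apart. Each genotype was split between the diets, which were fed for 8 weeks starting at an age of 4 weeks, and the fat was dissected at 12 weeks. Which fat depot was taken is not stated in the labels. The promoter is active in adipocytes and is also known to be active in some macrophages. The labels do not state that the replicates were separate mice, so p-values rest only on the spread among these samples, and that spread may be technical.

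SIRT1 is a protein deacetylase that uses NAD, the electron carrier of metabolism, and so ties protein acetylation to the energy state of the cell. In adipocytes it is known for restraining the nuclear receptor PPARG and activating its coactivator PGC-1alpha, and for favouring the release of stored fat. It also deacetylates the p65 subunit of NF-kB, the main transcription factor of inflammation, the tumour suppressor p53 and the insulin signalling adaptor IRS2, and stress responses of several kinds have been linked to it.

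Values are log2 expression, so that a difference of 1 is a doubling of signal. Array medians ran from 4.34 to 4.46, and arrays of one group correlated at 0.987 to 0.996 (Pearson's r). Precision is limited by how few arrays there are. A gene was represented by its brightest probe set and was tested if 4 or more arrays had it at 4 or above on that scale, leaving 12078 of 18193 genes. A gene is said to have risen or fallen where the averaged difference had an adjusted p under 0.05 (limma, Benjamini-Hochberg over the 12078 genes). Transcripts of tissues other than fat varied between arrays. The mean level of 18 skeletal muscle genes ran from 4.52 to 8.19 over the arrays and was high in some arrays of every group, and 5 arrays had the fast muscle troponin Tnnt3 at 8 or more. Wild-type high fat replicate 4 stood apart by 20 epithelial genes, with a mean of 5.98 against at most 3.42 in every other array. Of the 106 genes named by rule that were called, 29 lost the call when the 5 muscle arrays were left out, and such losses are given beside the genes described.

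The signal of Sirt1 itself was 9.42, 9.88, 9.02 and 9.41 in the wild-type and 9.37, 9.21, 9.44 and 8.94 in the knockout arrays after low fat feeding. After high fat feeding it was 8.85, 9.10, 9.08 and 8.85 for wild type and 8.30, 8.93, 8.81 and 8.93 for knockout. The genotypes overlapped on both diets. The averaged difference was -0.21 (SE 0.13, 95% confidence interval -0.48 to 0.06, limma adjusted p = 0.276), from -0.19 on low fat and -0.22 on high fat. The labels do not say whether its probe set lies inside the deleted stretch, so this signal cannot check the genotype labels, and in whole fat Sirt1 RNA of cells without Cre activity is measured as well.

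Averaged over the diets, 2566 genes (21.2% of the 12078 tested) differed between knockout and wild type. Of these, 1615 genes (13.4%) were higher in knockout fat and 951 (7.87%) were lower, and 243 rises and 70 falls were at least 2-fold. With every array centred on its median the knockout effect averaged over both diets gave 1380 rises and 1218 falls. The scavenger receptor Olr1, the integrin Itgax, the calprotectin subunit S100a8, the lipid droplet protein Pnpla3 and genes of the cell cycle and of macrophages were among the rises. The adhesion receptor Adgrg2, the cadherin Celsr2, the acyl-CoA synthetase Acsm3, the insulin receptor substrates Irs1 and Irs2 and the angiogenic factor Vegfa were among the falls. In bulk tissue a lower signal from fewer cells of a type and one from less RNA per cell cannot be told apart, and the same holds for a higher one.

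How far each diet contributed to the average differed widely between genes. Of the 2566, 940 (36.6%, which is 7.78% of all genes tested) had the same sign and an unadjusted p under 0.05 on each diet, 620 of them higher (5.13%) and 320 lower (2.65%) in knockout. A further 850 passed that p on the low fat diet only and 756 on the high fat diet only. The remaining 20 were 16 with opposite signs on the diets and 4 that passed on neither. The choice by an average favours equal signs, so these shares carry no test. The knockout difference itself depended on diet (interaction, limma adjusted p under 0.05) for 575 of the 2566 genes (22.4%), against 1569 (13%) of all genes tested. It was larger on the low fat diet for 337 and on the high fat diet for 238. Another 994 genes had an interaction and no averaged difference.

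**Figure D1:**
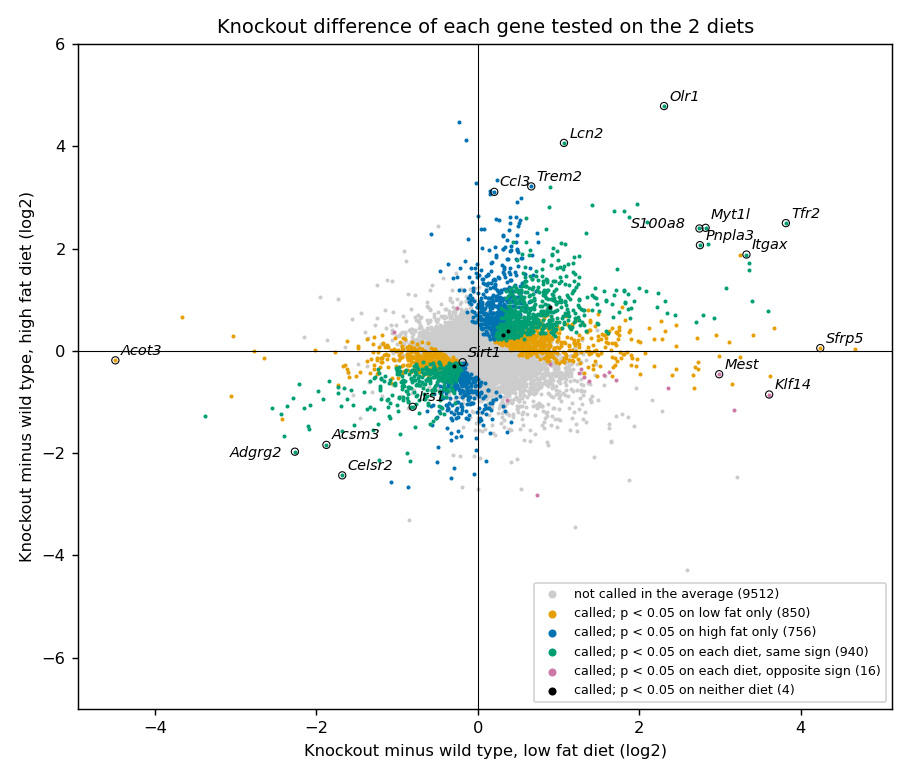
The knockout minus wild-type difference of each gene tested on the low fat diet (x axis, log2) and on the high fat diet (y axis, log2), coloured by how the averaged comparison was called. The 940 genes with a difference on each diet lie in the upper right and lower left, among them Olr1, Tfr2 and Itgax above and Adgrg2, Celsr2 and Acsm3 below, while Sfrp5 and Acot3 differed on the low fat diet and Ccl3 on the high fat diet.

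The diets can be set against each other without the average, since the knockout differences on low and on high fat share no arrays. They do share the variance estimate of each gene, so passing on both diets is not independent and the shares below carry no test. On low fat 2284 genes (18.9%) were called and on high fat 1818 (15.1%). Called on each diet with the same sign were 361 genes (2.99% of all genes), which is 15.8% of the low fat calls and 19.9% of the high fat calls. With opposite signs 121 (1% of all genes) were called. Of the 1410 genes that rose on low fat, 391 (27.7%) also rose on high fat with an unadjusted p under 0.05, where 15.9% of all genes did. Of the 874 that fell on low fat, 208 (23.8%) fell on high fat, against 13.8% of all genes. In the other direction, 393 of 1036 high fat rises (37.9%) rose on low fat, against 19.4% of all genes, and 174 of 782 high fat falls (22.3%) fell, against 13.6%. Low fat calls with the opposite sign and an unadjusted p under 0.05 on high fat numbered 251 (11%). Of all genes 13.8% fell and 15.9% rose on high fat at that p, so the opposite share was below both. Across the 12078 genes the differences on the diets correlated with r = 0.163, a description across genes that are not independent.

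For 521 genes (4.31% of those tested) the genotypes did not overlap on either diet. In 347 of them (2.87% of all genes) the 4 knockout arrays lay above the 4 wild-type arrays on each diet, and in 174 (1.44%) they lay below. From these the 12 largest rises and 12 largest falls were taken, and this choice fixes their separation, so only sizes and levels are described.

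Olr1, the receptor for oxidised low density lipoprotein on endothelium and macrophages, had the largest rise of that group. It read 2.49, 2.98, 2.43 and 2.41 for wild type and 4.75, 4.44, 4.65 and 5.69 for knockout on low fat. With the high fat diet it read 3.43, 5.22, 4.50 and 4.43 for wild type and 8.90, 8.86, 9.38 and 9.57 for knockout. Wild-type low fat fat was near the floor of the scale, knockout fat on the low fat diet was level with wild type on the high fat diet, and knockout high fat fat was far above every other group. The averaged difference was 3.55 (SE 0.23, adjusted p = 6.45e-07), from 2.31 on low fat and 4.79 on high fat, and with values under 4 set to 4 it was 2.76. The knockout difference was larger on the high fat diet (interaction adjusted p = 0.00295).

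Itgax encodes CD11c, an integrin of dendritic cells and of the macrophages that gather in obese fat. It read 5.25, 3.69, 3.73 and 3.45 for wild type and 7.77, 7.10, 7.43 and 7.14 for knockout on low fat. The high fat values were 7.02, 8.99, 8.14 and 8.70 for wild type and 10.48, 9.92, 10.11 and 9.88 for knockout. The averaged rise was 2.61 (SE 0.28, adjusted p = 2.23e-05), with 3.33 on low fat and 1.88 on high fat. S100a8, a subunit of the neutrophil and monocyte protein calprotectin, read 5.80, 4.28, 5.35 and 5.12 for wild type and 8.35, 7.76, 6.54 and 8.89 for knockout on low fat. Fed high fat, wild-type arrays had 8.10, 8.44, 8.60 and 8.88 and knockout arrays 10.83, 10.30, 11.07 and 11.40. Its rise was 2.57 (SE 0.29, adjusted p = 3.59e-05) and was alike on both diets, 2.75 and 2.39. Il1rn, which blocks interleukin-1 signalling, rose by 2.24 (SE 0.41, adjusted p = 0.00115), the metalloprotease Adam8 by 2.21 (SE 0.33, adjusted p = 0.000276) and the G protein regulator Rgs1 of activated leukocytes by 2.31 (SE 0.48, adjusted p = 0.00289). For Il1rn, Adam8 and Rgs1 the averaged diet difference (high minus low fat) was also large, 4.26, 2.98 and 3.87.

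Among the largest rises were genes of adipocytes and of tissues other than fat. Pnpla3, a lipid droplet protein that insulin and feeding induce in fat and liver, read 6.74, 5.43, 5.38 and 4.34 for wild type and 8.67, 7.34, 7.85 and 9.04 for knockout on low fat. Its high fat values were 7.57, 7.52, 8.20 and 7.47 for wild type and 9.67, 10.15, 9.51 and 9.69 for knockout. The averaged rise was 2.41 (SE 0.29, adjusted p = 6.02e-05). Tfr2, a transferrin receptor that senses iron, rose by 3.16 (SE 0.28, adjusted p = 3.99e-06), from 3.82 on low fat and 2.50 on high fat. Hspb7, a small heat shock protein of heart and muscle, rose by 2.47 (SE 0.26, adjusted p = 1.97e-05). Lipf, the gastric lipase, lay between 1.84 and 2.43 in wild type on low fat, 4.82 and 5.92 in knockout on low fat, 5.30 and 6.82 in wild type on high fat and 7.29 and 8.12 in knockout on high fat. Pex5l, a regulator of pacemaker ion channels in neurons, rose by 2.27 (SE 0.21, adjusted p = 6.32e-06). With values under 4 set to 4 the averaged rises of Lipf and Pex5l were 1.57 and 1.42.

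Myt1l, a zinc finger transcription factor of neurons, had the smallest diet difference of the 12 rises. It read 2.34, 2.01, 2.37 and 2.43 for wild type and 6.05, 4.95, 4.84 and 4.59 for knockout on low fat, and 1.96, 2.22, 2.23 and 2.33 against 4.09, 4.88, 4.54 and 4.84 on high fat. Every wild-type array was at the bottom of the scale and every knockout array was between 4.09 and 6.05, whatever the diet. The averaged rise was 2.61 (SE 0.18, adjusted p = 7.21e-07), while its diet difference was -0.31. Since all its wild-type arrays lie under 4, the size depends on the background correction, and with values floored at 4 it was 0.85 averaged, 1.11 on low fat and 0.59 on high fat.

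**Figure D2:**
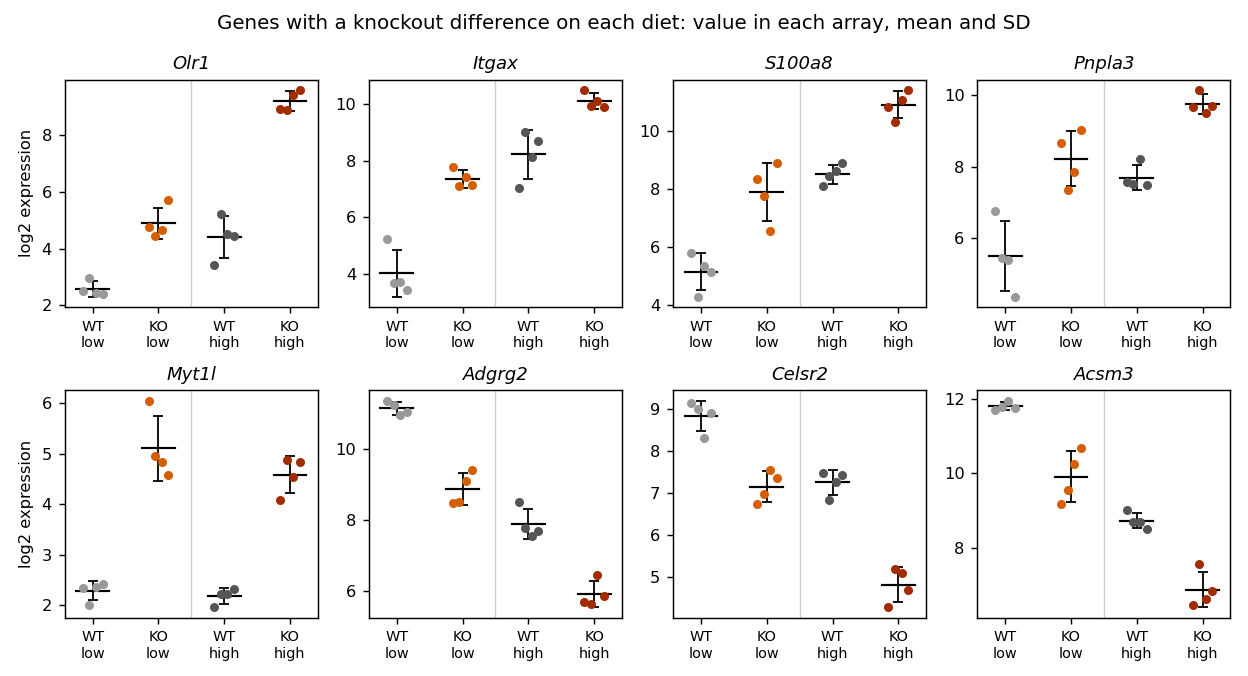
log2 expression in each of the 16 arrays for 5 of the largest rises and 3 of the largest falls, by genotype (WT wild type, KO knockout) and diet (low or high fat). Horizontal bars are group means and error bars SD (n = 4). In every panel the knockout arrays lie apart from the wild-type arrays of the same diet, and for Myt1l the diets are alike.

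Adgrg2, an adhesion G protein-coupled receptor, read 11.36, 11.23, 10.95 and 11.03 for wild type and 8.48, 8.52, 9.09 and 9.42 for knockout on low fat. High fat feeding gave 8.50, 7.78, 7.56 and 7.69 for wild type and 5.68, 5.65, 6.44 and 5.86 for knockout. Its averaged fall was -2.12 (SE 0.17, adjusted p = 2.11e-06), with -2.27 on low fat and -1.97 on high fat. Celsr2, a cadherin of planar cell polarity, read 9.14, 8.99, 8.32 and 8.90 for wild type and 6.74, 6.97, 7.55 and 7.36 for knockout on low fat. The corresponding high fat values were 7.47, 6.83, 7.27 and 7.44 and 4.28, 5.20, 5.10 and 4.69. It fell by 2.06 (SE 0.17, adjusted p = 2.11e-06). Both receptors stepped down from lean wild-type fat to knockout high fat fat, with the remaining groups between.

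Acsm3, a mitochondrial acyl-CoA synthetase for medium-chain fatty acids, read 11.70, 11.77, 11.94 and 11.75 for wild type and 9.19, 9.55, 10.24 and 10.68 for knockout on low fat. It read 9.02, 8.70, 8.71 and 8.52 for wild type and 6.49, 7.57, 6.66 and 6.87 for knockout on high fat. The falls on the diets were of the same size, -1.88 and -1.84, and the average was -1.86 (SE 0.19, adjusted p = 1.68e-05). Gprin3, a G protein-binding protein, had an averaged difference of -1.81 (SE 0.20, adjusted p = 3.23e-05) beside a diet difference of -0.65. The other 8 of these falls ran from -2.33 for the Ras association protein Rassf6 to -1.62 for Dennd2d, an exchange factor for Rab proteins, and included the transcription factor Mycl (-2.03), the transporter Flvcr2 (-1.84), the heparan sulfate sulfotransferase Hs3st3b1 (-1.83), the adhesion protein Mpzl2 (-1.82), the amino acid transporter Slc43a1 (-1.72) and the vesicle release protein Cadps2 (-1.64). For Rassf6, Hs3st3b1, Slc43a1 and Cadps2 the fall was larger on the low fat diet (interaction adjusted p = 0.023, 0.0268, 0.0105 and 0.0427). Most high fat arrays of Rassf6 lay under 4, and with values floored at 4 its average was -1.73 and its high fat difference -0.16. Of these 12 rises and 12 falls, Rgs1 lost its call without the 5 muscle arrays (1.66, adjusted p = 0.0629). Mpzl2 lost its call with the mean level of 14 mesothelial genes as a covariate (-0.89, adjusted p = 0.257). Its difference was -1.07 on low fat (limma unadjusted p = 0.0827) and -2.56 on high fat. Wild-type high fat replicate 4, the array with epithelial transcripts, read 9.46 for it beside 5.97 to 7.87 in the rest of its group.

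The averaged difference and the diet difference are computed from the same arrays, so their agreement is no result, and values are given side by side. Olr1 had 3.55 for knockout and 3.06 for diet, Itgax 2.61 and 3.46, Adgrg2 -2.12 and -3.12, Celsr2 -2.06 and -1.96, and Acsm3 -1.86 and -3.04.

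Genes of stress responses were taken as 8 lists with 183 entries, of which 169 had a probe set of 1 gene and 162 passed the filter. Of the 162, 31 (19.1%) differed in the averaged comparison, 20 higher and 11 lower, where 21.2% of all genes did. Of them, 11 (6.79%) moved the same way on each diet, against 7.78% of all genes, 5 up and 6 down, and 18 (11.1%) had an interaction, against 13%. The sign was the same on both diets for 89 of the 162, and for 6401 of the 12078 genes (53%). Their median averaged difference was 0.05, with 0.03 on low fat and 0.09 on high fat, and that of all genes was 0.02. As a whole the stress genes thus had shares near those of all genes. Without the 5 muscle arrays 15 stress genes were called, and without wild-type high fat replicate 4 as well, 10.

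In the endoplasmic reticulum, where secreted proteins fold, most sensors and chaperones did not pass the test. Of 12 sensors and transducers of unfolded protein, 2 rose and none fell, and of 21 chaperones and folding enzymes 1 rose and none fell, where 13.4% of all genes rose and 7.87% fell. The chaperone was Sdf2l1, which binds BiP and is strongly induced by unfolded protein. It read 3.59, 4.14, 4.02 and 4.95 for wild type and 5.09, 5.20, 5.19 and 5.14 for knockout on low fat, and 5.00, 6.80, 5.79 and 6.40 against 6.46, 6.74, 6.83 and 7.12 on high fat. The genotypes were separate on low fat and overlapped on high fat, and the averaged rise was 0.88 (SE 0.23, adjusted p = 0.0105). BiP itself (Hspa5), the central chaperone of this response, had a difference of 0.13 (adjusted p = 0.286), calreticulin (Calr) 0.10 (adjusted p = 0.4), the co-chaperone Dnajb9 -0.11 (adjusted p = 0.463) and the transcription factor Xbp1 -0.10 (adjusted p = 0.602). Ddit3, the death-promoting factor CHOP, was 8.01, 7.66, 7.99 and 7.71 for wild type and 7.83, 7.82, 7.79 and 8.24 for knockout on low fat. On high fat it was 7.63, 8.41, 8.32 and 8.22 for wild type and 8.66, 8.80, 9.07 and 8.89 for knockout. Its average of 0.39 (SE 0.12, adjusted p = 0.0251) was made up of 0.71 on high fat and 0.08 on low fat. A difference between the diets was not called (interaction adjusted p = 0.0841). The call was lost without knockout high fat replicate 3 (adjusted p = 0.0553) and without the muscle arrays (adjusted p = 0.112).

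The sensor Atf6 (0.27) and, among 17 genes of the disposal of misfolded proteins, Os9 (0.25), Sec61b (0.25) and Edem1 (0.40) rose as well. All 4 calls were lost without the muscle arrays (adjusted p = 0.0709, 0.117, 0.152 and 0.327). With the muscle level as a covariate the limma adjusted p was 0.0503, 0.0175, 0.0156 and 0.049. The call of Atf6 was lost on leaving out any of 9 single arrays, that of Edem1 for 11 and that of Sec61b for 2, knockout low fat replicate 2 (adjusted p = 0.055) and knockout high fat replicate 4 (adjusted p = 0.0517).

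In the integrated stress response, which cells mount to amino acid shortage and other insults through the factor ATF4, 5 of 26 genes rose and 4 fell. These 9 were 34.6% of the list, against 21.2% of all genes called. Leaving out 1 array gave 6 to 8 called members, so the count of 9 was held in none of these fits. Slc7a5, a transporter of large neutral amino acids, read 6.23, 6.02, 5.99 and 7.35 for wild type and 7.55, 7.69, 7.31 and 7.80 for knockout on low fat. The high fat arrays gave 7.47, 7.68, 6.98 and 7.40 for wild type and 8.16, 7.82, 7.86 and 7.98 for knockout, so that only on high fat were the genotypes apart. It rose by 0.88 (SE 0.17, adjusted p = 0.00198). Chac1, a glutathione-degrading enzyme, moved the other way, with 9.42, 9.28, 9.40 and 9.79 for wild type and 8.66, 8.82, 8.95 and 8.55 for knockout on low fat. With high fat it had 8.88, 7.95, 8.02 and 7.86 for wild type and 7.81, 7.17, 7.64 and 7.74 for knockout, and it fell by 0.66 (SE 0.15, adjusted p = 0.00439). Vldlr, a lipoprotein receptor, rose by 0.35 (adjusted p = 0.00447), with 0.45 on low fat and 0.26 on high fat.

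Other called members had unequal values on the diets. The asparagine synthetase Asns fell by 0.74 on low fat and had -0.19 on high fat (average -0.47, adjusted p = 0.00151), and the pseudokinase Trib3 had -0.95 and -0.02 (average -0.48, adjusted p = 0.0465). The leucine sensor Sesn2 had -0.60 and -0.05 and the secreted glycoprotein Stc2 1.49 and -0.09. Atf3, a stress-induced transcription factor, had 0.67 on low fat and 1.88 on high fat (average 1.27, SE 0.31, adjusted p = 0.00856), and the mitochondrial folate enzyme Mthfd2 0.36 and 0.98. Of these the interaction was called for Stc2 (adjusted p = 0.0165) and missed for Asns, Trib3, Sesn2, Atf3 and Mthfd2 (adjusted p = 0.0535 to 0.342). Atf4 itself had a difference of 0.21 (adjusted p = 0.446). Thus genes that ATF4 is known to induce were found among the rises and among the falls. With the 5 muscle arrays left out 3 of the 26 genes were called, and Asns, Chac1, Vldlr and Atf3 were not (adjusted p = 0.0721, 0.0525, 0.0538 and 0.108). With all arrays kept and the muscle level as a covariate 8 were called.

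Among 26 genes of the oxidative stress response 1 rose and 2 fell (11.5% called, against 21.2% of all genes). Hmox1, which breaks down heme, read 7.44, 8.21, 7.73 and 8.80 for wild type and 8.83, 9.07, 9.16 and 8.54 for knockout on low fat, and 9.07, 9.72, 9.13 and 9.63 against 10.62, 10.75, 10.70 and 11.02 on high fat. It rose by 1.12 (SE 0.17, adjusted p = 0.000353), with a small overlap of the genotypes on low fat and none on high fat. The secreted glutathione peroxidase Gpx3 fell by 0.53 (SE 0.09, adjusted p = 0.000769), from -0.76 on low fat and -0.29 on high fat. The glutathione transferase Gsta4 had 0.11 on low fat and -2.15 on high fat. In its case wild-type high fat replicate 4, the array with epithelial transcripts, read 13.08 beside 10.28 to 10.77 in the rest of its group, and the averaged call was lost without the muscle arrays (adjusted p = 0.119), without these and that array (adjusted p = 0.0574) and without knockout high fat replicate 1 (adjusted p = 0.0566). Nqo1, a classic target of the antioxidant factor NRF2, had -0.17 (adjusted p = 0.503).

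Of 19 genes of p53 and DNA damage 4 rose and none fell (21.1% called, against 21.2% of all genes), and 2 were called without the muscle arrays. Cdkn1a, the cell cycle inhibitor p21, read 9.33, 10.03, 10.06 and 9.23 for wild type and 10.36, 9.74, 10.49 and 10.06 for knockout on low fat. High fat arrays read 9.98, 10.56, 10.24 and 10.39 for wild type and 11.23, 10.95, 11.35 and 11.36 for knockout, and the averaged rise was 0.72 (SE 0.15, adjusted p = 0.00302). The p53 target Phlda3, an inhibitor of AKT, rose by 1.59 on low fat and had 0.26 on high fat (average 0.93, adjusted p = 0.00135; interaction adjusted p = 0.0194). The inhibitor Cdkn2b rose by 0.67 (adjusted p = 0.0217), a call lost without the muscle arrays (adjusted p = 0.163). Ccng1 rose by 0.24 and lost that call on leaving out any of 12 single arrays or the muscle arrays (adjusted p = 0.269). Mdm2, another p53 target, had 0.01 (adjusted p = 0.957). Of 21 heat shock genes 2 rose (9.52%, against 13.4% of all genes) and none fell. The small heat shock protein Cryab (0.60, adjusted p = 0.000279) had 1.02 on low fat and 0.17 on high fat. The co-chaperone Dnajb4 (0.26, adjusted p = 0.026) had 0.53 and -0.02. The direction of Dnajb4 turned when its probe sets were averaged (-0.01) or all tested (-0.43), and its call was also lost on dropping replicate 1 of the low fat knockouts (adjusted p = 0.0532) or replicate 4 of wild type on high fat (adjusted p = 0.0537) or the muscle arrays (adjusted p = 0.154). The inducible chaperones Hspa1a and Hspa1b had -0.11 and -0.06 (adjusted p = 0.721 and 0.815).

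Genes of the hypoxia response, which the factor HIF-1 induces at low oxygen, were called for 7 of 20, with 5 lower (7.87% of all genes were lower) and 2 higher, and their median averaged difference was -0.07. Egln3, a prolyl hydroxylase that marks HIF for destruction, read 8.17, 7.12, 7.76 and 6.81 for wild type and 4.96, 5.42, 4.86 and 6.32 for knockout on low fat. It was 4.71, 4.57, 5.11 and 6.06 for wild type and 3.71, 4.07, 4.00 and 4.42 for knockout on high fat. No arrays of the genotypes overlapped on either diet, and it fell by 1.57 (SE 0.26, adjusted p = 0.00056). Vegfa, the main growth factor of blood vessels, read 10.78, 11.50, 10.38 and 10.87 for wild type and 10.51, 10.53, 10.63 and 9.99 for knockout on low fat. With the high fat diet it was 10.40, 10.05, 10.19 and 9.77 in wild type and between 8.65 and 9.14 in the 4 knockout arrays. The genotypes overlapped on low fat and were separate on high fat, and the averaged fall was -0.84 (SE 0.15, adjusted p = 0.001). Smaller falls on each diet were those of the histone demethylase Kdm3a (-0.35, adjusted p = 0.00757) and the MYC antagonist Mxi1 (-0.29, adjusted p = 0.00511). Ndrg1 fell on high fat (-0.81) and had -0.03 on low fat. The collagen hydroxylase P4ha2 (0.46, adjusted p = 0.0127) and Ankrd37 (0.34, adjusted p = 0.0357) rose, both mainly on low fat, and the glucose transporter Slc2a1 had 0.12 (adjusted p = 0.46). Leaving out the muscle arrays, 3 of the 20 were called, and Kdm3a and Ndrg1 were not (adjusted p = 0.0556 and 0.102).

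**Figure D3:**
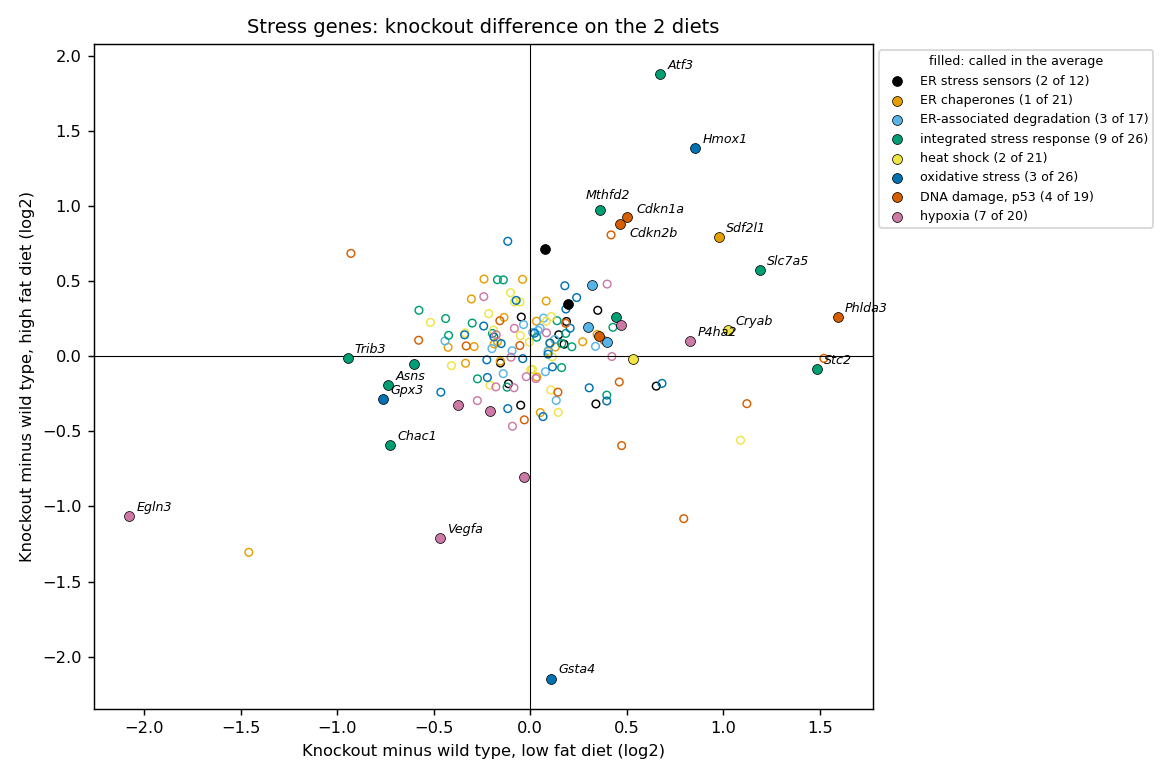
The knockout minus wild-type difference on the low fat diet (x axis, log2) and the high fat diet (y axis, log2) for the 162 stress genes tested, coloured by list. Filled points are the 31 genes called in the averaged comparison. Most points lie near 0, Hmox1, Slc7a5 and Sdf2l1 lie in the upper right and Egln3, Vegfa and Chac1 in the lower left.

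Vegfa fell together with its receptor Kdr, which marks endothelial cells. Kdr read 9.32, 9.05, 9.71 and 9.66 for wild type and 9.15, 8.94, 8.83 and 8.88 for knockout on low fat, and 9.03, 9.13, 9.12 and 8.99 against 7.62, 8.11, 7.84 and 8.41 on high fat. It fell by 0.78 (SE 0.12, adjusted p = 0.000319), -0.48 on low fat and -1.07 on high fat. Of 13 endothelial genes 2 fell and none rose (15.4% called, against 21.2% of all genes). The mean level of all 13 lay between 9.34 and 9.60 for wild type and 9.45 and 9.59 for knockout on low fat, and between 9.65 and 9.82 against 9.09 and 9.57 on high fat. On high fat the list's mean was thus lower in all knockout than in all wild-type arrays. There 4 of the 13 genes fell, as did 782 of all 12078 genes. Its part in the falls of Kdr and Vegfa was not tested.

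RNA of several insulin signalling genes was lower on each diet. Of 24 genes of insulin action and glucose use 11 were called (45.8%, against 21.2% of all genes), 7 lower and 4 higher, and 7 of them (29.2%, against 7.78%) on each diet. Irs1, the main insulin receptor substrate of adipocytes, read 11.20, 11.04, 10.41 and 10.47 for wild type and 9.80, 10.46, 9.56 and 10.06 for knockout on low fat. On the high fat diet the arrays read 10.28, 10.40, 10.59 and 10.21 for wild type and 8.71, 9.49, 9.40 and 9.50 for knockout. The overlap on low fat was confined to knockout replicate 2, there was none on high fat, and the averaged fall was -0.95 (SE 0.16, adjusted p = 0.00061). Irs2, the second substrate, read 8.04, 7.30, 7.15 and 7.21 for wild type and 6.62, 6.45, 6.42 and 6.61 for knockout on low fat, and 6.90, 6.48, 6.83 and 6.71 against 6.54, 6.03, 5.85 and 6.10 on high fat. The genotypes were separate on low fat and overlapped by 1 knockout array on high fat, and it fell by 0.75 (SE 0.13, adjusted p = 0.00085).

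The receptor Insr had -0.84 on low fat and -0.27 on high fat (average -0.55, SE 0.09, adjusted p = 0.000559). Downstream, the kinase Akt2 fell by 0.47 (adjusted p = 0.0141) and Pde3b, the phosphodiesterase through which insulin restrains lipolysis, by 0.32 (adjusted p = 0.00635), each on both diets. Grb14, an adaptor that blocks the receptor kinase, read 6.08, 5.59, 5.50 and 6.13 for wild type and 7.03, 7.92, 6.94 and 7.30 for knockout on low fat. It read 6.58, 6.46, 6.83 and 7.47 for wild type and 8.06, 8.16, 7.53 and 7.69 for knockout on high fat. Its arrays did not overlap on either diet, and it rose by 1.25 (SE 0.18, adjusted p = 0.000178). Ptpn1, the phosphatase PTP1B that acts on the receptor, rose by 0.52 (adjusted p = 0.00285), 0.38 on low fat and 0.66 on high fat. The related adaptor Grb10 fell (-0.27, adjusted p = 0.0283), as did the AKT-binding Trib2 (-0.49, adjusted p = 0.00532), and the glycolytic enzymes Pkm (0.39) and Pfkl (0.58) rose. Without the 5 muscle arrays 6 of the 24 were called, and with wild-type high fat replicate 4 left out too, 5. With all arrays kept and the muscle level as a covariate 11 were called. Irs1 and Grb14 kept their calls in all settings tried.

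**Figure D4:**
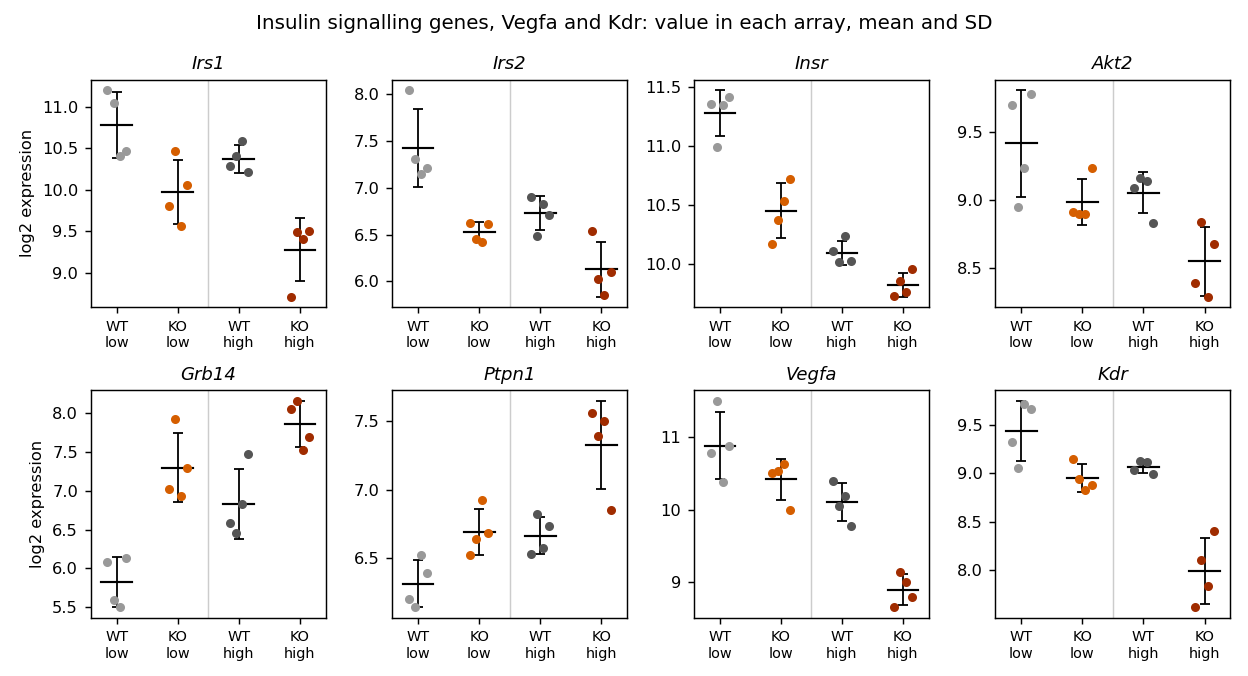
log2 expression in each array for 6 genes of insulin signalling and for Vegfa and its receptor Kdr, by genotype and diet. Horizontal bars are group means and error bars SD (n = 4). Irs1, Irs2, Insr, Akt2, Vegfa and Kdr have lower and Grb14 and Ptpn1 higher group means in knockout on each diet, with some overlap of arrays for several genes.

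Of 25 genes of SIRT1 substrates and cofactors 2 fell and none rose (8% called, against 21.2% of all genes), and without the muscle arrays both calls were lost (adjusted p = 0.103 for Pparg and 0.0516 for Ppargc1a). With the muscle level as a covariate both were called (limma adjusted p = 0.0131 and 0.0109). Pparg, the master regulator of adipocytes, had -0.72 on low fat and -0.15 on high fat (average -0.43, adjusted p = 0.00856), and Ppargc1a, which encodes PGC-1alpha, had -1.01 and -0.30 (average -0.65, adjusted p = 0.0295). The call of Ppargc1a was lost without any of 5 arrays, namely wild-type high fat replicates 3 and 4, knockout low fat replicates 1 and 2 or replicate 1 of the high fat knockouts (adjusted p = 0.0536 to 0.0665). Among 18 sirtuins and NAD enzymes 1 rose (5.56%, against 13.4% of all genes) and none fell. It was Bst1, an NAD-cleaving ectoenzyme of myeloid cells, with 0.06 on low fat and 1.12 on high fat, and its averaged call (0.59, adjusted p = 0.0447) was lost on leaving out any of 12 single arrays or the muscle arrays (adjusted p = 0.0596).

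Genes of the cell cycle rose almost as a block. Of 24 tested, 19 rose (79.2%, against 13.4% of all genes) and none fell, and 12 (50%, against 5.13% of all genes) rose on each diet. The median difference was 0.63, with 0.47 on low fat and 0.96 on high fat, against 0.02 over all genes. Rrm2, the ribonucleotide reductase subunit that limits supply of DNA building blocks, read 8.19, 8.04, 7.56 and 7.63 for wild type and 9.85, 9.53, 9.76 and 8.61 for knockout on low fat. The high fat values were 9.47, 10.08, 9.39 and 9.99 for wild type and 10.75, 10.62, 10.70 and 10.73 for knockout. It rose by 1.28 (SE 0.17, adjusted p = 0.000113). Aurkb, a mitotic kinase, read 4.05, 4.16, 3.43 and 3.60 against 4.86, 5.27, 4.75 and 4.82 on low fat and 5.83, 6.76, 5.89 and 5.88 against 7.13, 7.21, 7.15 and 7.05 on high fat, a rise of 1.08 (SE 0.14, adjusted p = 0.000122) without overlap on either diet. The checkpoint kinase Bub1 rose by 1.36 (adjusted p = 6.2e-05), more on high fat (2.12 against 0.59, interaction adjusted p = 0.0081). All its low fat arrays read 2.00 to 2.84, and with values floored at 4 its average was 0.83 and its low fat difference 0. The survival factor Birc5 rose by 1.24, the cyclin Ccna2 by 1.00, the proliferation marker Mki67 by 0.95, the topoisomerase Top2a by 0.88 and the factor E2f1 by 0.53, each on both diets, while the helicase subunits Mcm2, Mcm3, Mcm5 and Mcm6 had 0.15 to 0.32 on low fat and 0.91 to 1.63 on high fat. With the 5 muscle arrays left out 10 of the 24 were called, and without wild-type high fat replicate 4 as well, 8.

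Promoters of 4 of these genes are shown because cell cycle genes that rise together are known to share short promoter elements. Each line gives the 250 bases before the transcript start on the gene's own strand (RefSeq, GRCm38.p6), with matches of 4 motifs on either strand in capitals. The first was CCAAT, the box of the factor NF-Y, and the second was TTTGAA, the CHR element of late cell cycle genes. The other two, GGCGGGAA and the looser form TTTNGCGC, are forms of the E2F site. A match on the opposite strand shows as the reverse complement. The lines are Ccnb2 (cyclin B2, chr9:70421555-70421804, minus strand), Cdk1 (the mitotic kinase, chr10:69352913-69353162, minus strand), Cdc20 (an activator of mitotic exit, chr4:118437344-118437593, minus strand) and Rrm2 (chr12:24708004-24708253, plus strand).
Ccnb2: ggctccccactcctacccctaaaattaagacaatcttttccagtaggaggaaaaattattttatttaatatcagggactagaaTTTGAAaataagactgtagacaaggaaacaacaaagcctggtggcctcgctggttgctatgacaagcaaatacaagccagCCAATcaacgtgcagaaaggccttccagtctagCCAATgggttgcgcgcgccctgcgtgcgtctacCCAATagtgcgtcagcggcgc
Cdk1: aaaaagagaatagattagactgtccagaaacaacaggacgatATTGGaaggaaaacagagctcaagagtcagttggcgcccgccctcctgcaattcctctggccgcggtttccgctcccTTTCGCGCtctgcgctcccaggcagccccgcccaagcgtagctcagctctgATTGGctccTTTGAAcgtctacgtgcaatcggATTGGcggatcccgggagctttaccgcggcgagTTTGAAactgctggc
Cdc20: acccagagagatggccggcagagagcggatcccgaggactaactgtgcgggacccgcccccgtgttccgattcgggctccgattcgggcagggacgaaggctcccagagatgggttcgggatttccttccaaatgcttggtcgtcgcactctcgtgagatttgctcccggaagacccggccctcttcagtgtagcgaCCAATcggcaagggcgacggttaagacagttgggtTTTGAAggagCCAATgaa
Rrm2: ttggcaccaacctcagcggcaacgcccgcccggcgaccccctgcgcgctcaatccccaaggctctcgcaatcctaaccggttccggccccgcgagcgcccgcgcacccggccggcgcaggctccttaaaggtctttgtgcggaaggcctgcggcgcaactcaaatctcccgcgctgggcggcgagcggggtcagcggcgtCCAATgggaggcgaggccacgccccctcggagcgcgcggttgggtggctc

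The Ccnb2 window held 3 CCAAT boxes and 1 TTTGAA, that of Cdk1 3 CCAAT boxes, 2 TTTGAA and 1 TTTNGCGC, that of Cdc20 2 CCAAT boxes and 1 TTTGAA, and that of Rrm2 1 CCAAT box. Of the 19 cell cycle genes that rose, 17 had a promoter in the table. CCAAT was present in 13 of the 17 (76.5%), against 37.5% of 27025 genes, TTTGAA in 6 (35.3%, against 18.3%), TTTNGCGC in 3 (17.6%, against 1.31%) and GGCGGGAA in 1 (5.88%, against 2.13%). The motifs were chosen after the values had been seen, and a match is a description of letters, not of binding. In the arrays, Ccnb2 had 2.97, 3.12, 2.64 and 2.48 for wild type and 3.50, 4.07, 3.58 and 3.38 for knockout on low fat, and 4.81, 4.93, 4.32 and 4.89 against 5.84, 5.54, 5.91 and 5.94 on high fat. It rose by 0.95 (SE 0.13, adjusted p = 0.000135), and on low fat most of its arrays lay under 4. Cdc20 rose by 0.59 (adjusted p = 0.00408) on both diets. Cdk1 rose by 0.60 (adjusted p = 0.0239), from 0.16 on low fat and 1.04 on high fat.

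Of 28 macrophage markers 18 rose (64.3%, against 13.4% of all genes) and none fell, with a median of 0.49. On each diet 9 rose (32.1%, against 5.13% of all genes). Adgre1, an adhesion receptor that defines tissue macrophages in mice, read 9.14, 9.20 and 9.34 in wild-type replicates 1, 3 and 4, 10 in replicate 2, and 10.70, 10.71, 10.43 and 9.88 in knockout on low fat. With high fat feeding it read 10.53, 10.79, 10.55 and 10.80 for wild type and 12.05, 11.38, 11.86 and 11.61 for knockout. The averaged rise was 1.03 (SE 0.15, adjusted p = 0.000221), with 1.01 and 1.06 on the diets, and 1 knockout array lay within the wild-type range on low fat. The beta-glucan receptor Clec7a rose by 1.02 (adjusted p = 1.07e-05), the Fc receptor chain Fcer1g by 0.68 (adjusted p = 0.000236) and the complement protein C1qc by 0.47 (adjusted p = 0.0023). The mean level of the 28 markers was 8.81 to 9.16 for wild type and 9.38 to 9.75 for knockout on low fat, and 9.70 to 10.26 against 10.49 to 10.57 on high fat, without overlap on either diet. The part of these cells in the rises of the cell cycle, stress and lysosome genes was not tested. Leaving out the muscle arrays, 12 of the 28 were called.

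Of 16 markers of lipid-loaded macrophages 8 rose (50%, against 13.4% of all genes) and none fell. On each diet 5 rose (31.2%, against 5.13% of all genes), and 8 were called without the muscle arrays too. The interaction was called for 5 of the 16 (31.2%, against 13% of all genes), and the median difference was 0.32 on low fat and 1.26 on high fat. Their mean level was 8.44 to 8.68 for wild type and 9.30 to 9.44 for knockout on low fat, and 9.34 to 10.72 against 11.47 to 11.60 on high fat. Trem2, their lipid receptor, had 0.66 on low fat and 3.22 on high fat (average 1.94, SE 0.27, adjusted p = 0.000182; interaction adjusted p = 0.0071), and the lysosomal glycoprotein Gpnmb 0.33 and 2.04. Mmp12, the macrophage elastase, rose by 2.48 (adjusted p = 0.000641) with 3.36 on low fat and 1.59 on high fat (interaction adjusted p = 0.171). Like Mmp12, Itgax of this list had the larger value on low fat. Of 23 lysosome genes 10 rose (43.5%, against 13.4% of all genes) and none fell. Among the rises were the protease Ctsk (1.14, adjusted p = 0.000121) and the proton pump subunit Atp6v0d2 (2.14, adjusted p = 0.000525) on each diet. Without the muscle arrays 5 lysosome genes were called.

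The inflammasome is the complex that activates caspase-1 and interleukin-1. Of 13 genes tested from a list of caspases and inflammasome genes, 6 rose (46.2%, against 13.4% of all genes), none fell and 7 were not called. The list also holds caspases outside that complex, such as Casp8 and Casp9. The sensor Nlrp3 and the cytokines Il1a and Il1b failed the filter, with at most 3.31, 1.98 and 3.46 in any array. The 6 rose on each diet, as 5.13% of all genes did, and the interaction was called for none of the 13. Casp1 read 9.31, 9.87, 9.82 and 9.57 for wild type and 10.30, 10.03, 9.88 and 9.85 for knockout on low fat. It read 9.96, 10.13, 10.17 and 10.01 for wild type and 11.22, 10.91, 10.77 and 10.86 for knockout on high fat, so that 1 knockout array overlapped wild type on low fat and none did on high fat. The rise was 0.62 (SE 0.10, adjusted p = 0.000504). Its adaptor Pycard read 6.93, 7.03, 7.04 and 7.20 against 7.89, 8.35, 7.50 and 7.91 on low fat and 8.23, 9.15, 8.18 and 9.38 against 10.10, 9.76, 9.95 and 9.85 on high fat, a rise of 1.02 (SE 0.17, adjusted p = 0.000566) without overlap. The sensors Naip2 (1.05, adjusted p = 0.000276), Naip5 (0.78, adjusted p = 0.00478) and Aim2 (0.59, adjusted p = 0.00592) rose too, and Il1rn was the sixth. Naip2 and Naip5 are members of a family of close paralogs whose probe sets may not tell them apart. Without the muscle arrays 6 of the 13 were called. Myeloid cells express these genes, and the macrophage marker levels given above rose in the same arrays. The part of these cells in the 6 rises was not tested.

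Of 22 cytokine and NF-kB genes 8 rose (36.4%, against 13.4% of all genes), 2 of them on each diet (9.09%, against 5.13%), and none fell. Lcn2, an iron-binding acute phase protein, had 1.07 on low fat and 4.07 on high fat (average 2.57, SE 0.27, adjusted p = 1.55e-05; interaction adjusted p = 0.00225), and the neutrophil attractant Cxcl2 had 1.17 and 1.53. The chemokine Ccl3 rose on high fat only (0.20 and 3.11, interaction adjusted p = 0.00123), whereas the NF-kB inhibitor Tnfaip3 rose on low fat (1.08 and 0.16, interaction adjusted p = 0.0125). Leaving out 1 array moved this count between 5 (without knockout low fat replicate 1) and 10 (without wild-type high fat replicate 2). Of 15 interferon response genes 1 rose (6.67%, against 13.4% of all genes). It was Oas1a (0.55, adjusted p = 0.0214), which lost its call without the muscle arrays (adjusted p = 0.083).

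Several groups held genes whose knockout effect differed by diet. Of 13 genes that mark growth of fat mass, 6 rose and 2 fell (61.5% called, against 21.2% of all genes), and 8 had an interaction (61.5%, against 13% of all genes). Sfrp5, a secreted Wnt inhibitor of growing fat, read 6.83, 7.37, 6.68 and 7.10 for wild type and 11.77, 11.16, 11.45 and 10.57 for knockout on low fat, and was 11.68 to 12.15 in all 8 high fat arrays. Its average of 2.15 stood for 4.24 on low fat and 0.05 on high fat (interaction adjusted p = 1.57e-06). The imprinted gene Mest had 2.99 and -0.46, the transcription factor Klf14 3.61 and -0.85 and leptin (Lep) 1.17 and 0.01. Of 26 matrix genes 14 rose (53.8%, against 13.4% of all genes) and none fell. An interaction was called for 8 of the 26 (30.8%, against 13% of all genes), such as the collagens Col15a1 (3.11 and 0.18) and Col6a2 (1.40 and -0.04). The protease inhibitor Timp1 rose on each diet (1.05 and 1.59). Acot3, an acyl-CoA thioesterase, had -4.49 on low fat, where wild type had 6.38 to 7.84 and knockout 2.28 to 3.33, and -0.19 on high fat, where all 8 arrays were between 1.44 and 1.96. Without the muscle arrays 6 of the 26 matrix genes were called, and with the muscle level as a covariate 14.

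Metabolic genes moved in part on each diet. Of 21 genes of lipolysis and fat oxidation 7 fell and 1 rose (38.1% called, against 21.2% of all genes). Acsm3 and the peroxisomal enzyme Ehhadh (-0.87, SE 0.14, adjusted p = 0.000411) fell on each diet. Of 24 lipid synthesis genes 4 rose and 6 fell (41.7% called). Pnpla3 and the desaturase Scd2 (0.87, adjusted p = 3.94e-05) rose on each diet. The phosphatidate phosphatase Lpin1 (-0.56, adjusted p = 0.002) and the acyltransferase Gpam (-0.50, adjusted p = 0.00232) fell on each diet. Of 14 cholesterol synthesis genes 4 rose and 1 fell (35.7% called). Dhcr7, the last enzyme of the pathway, read 9.29, 9.33, 9.48 and 9.04 against 9.94, 9.88, 9.78 and 10.18 on low fat and 9.84 to 10.07 against 11.09, 10.76, 10.95 and 11.01 on high fat, a rise of 0.82 (SE 0.08, adjusted p = 1.55e-05). Fdft1, which makes squalene, fell by 0.59 (adjusted p = 0.000476), with -0.59 and -0.58 on the diets. Of 29 respiratory chain subunits 2 fell and none rose (6.9% called). Without the muscle arrays both calls, of Ndufa9 and Sdha, were lost (adjusted p = 0.143 and 0.174). The clock repressor Nr1d1 fell by 1.21 (SE 0.18, adjusted p = 0.000293), -1.29 on low fat and -1.14 on high fat. Of 16 clock genes 3 fell and 1 rose (25% called). Without the muscle arrays 4 oxidation, 4 lipid synthesis and 3 cholesterol genes were called.

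**Figure D5:**
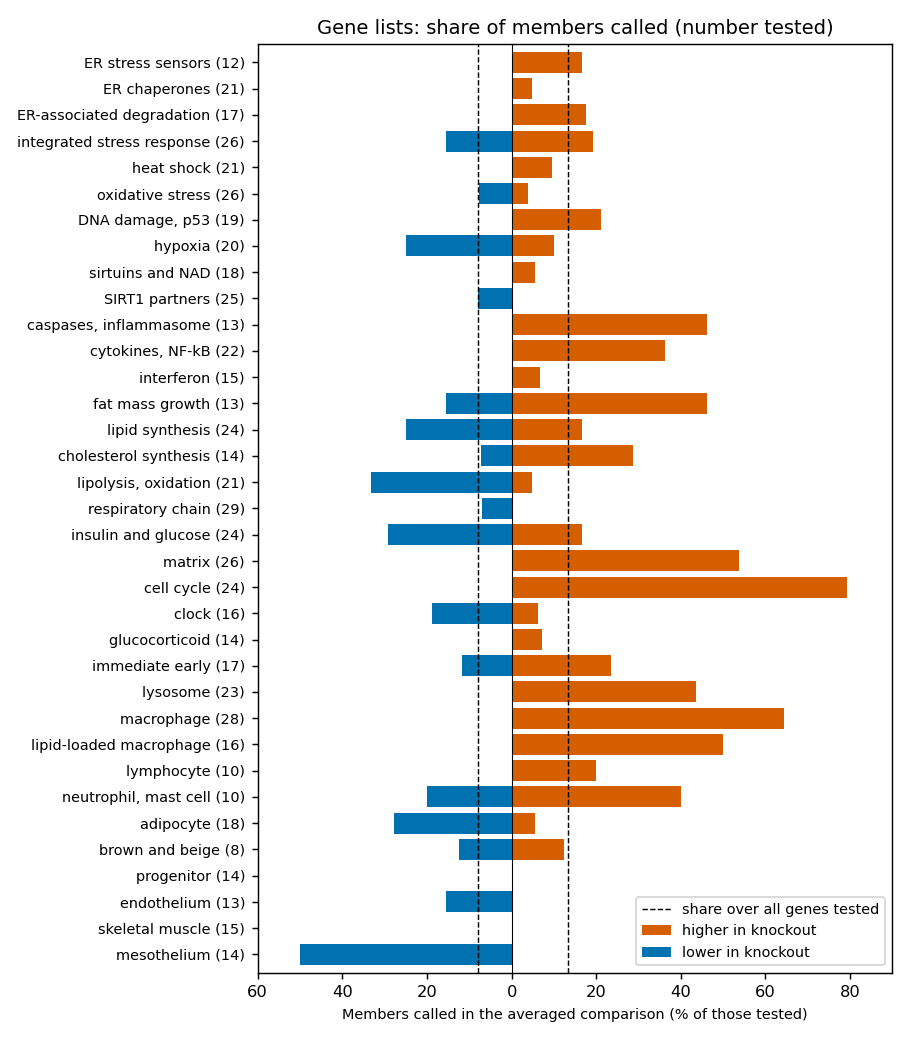
The share of tested members of each gene list that rose (right, % of members) or fell (left, % of members) in the averaged comparison, with the number tested in brackets. Dashed lines mark the shares over all genes tested, 13.4% up and 7.87% down. Cell cycle, macrophage and matrix genes and the list of caspases and inflammasome genes stand beyond the line for rises. Mesothelial and oxidation genes stand beyond the line for falls, while most stress lists lie near the lines.

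Adipocyte markers were high in every array, with a mean level over 18 genes of 11.95 to 12.52. Of the 18, 5 fell and 1 rose (33.3% called, against 21.2% of all genes). Without the muscle arrays 1 was called, and with the muscle level as a covariate 6. Their mean level was 12.44 to 12.52 for wild type and 12.27 to 12.49 for knockout on low fat, and 12.21 to 12.41 against 11.95 to 12.28 on high fat, overlapping on both. Mesothelial genes, which mark the lining of visceral fat pads, fell on high fat. Of 14, 7 fell (50%, against 7.87% of all genes) and none rose in the average. On high fat 12 of the 14 fell, as did 782 of all 12078 genes, and on low fat none did. Their median was -0.01 on low fat and -1.49 on high fat. Bnc1, a transcription factor of mesothelium, read 9.33, 9.19, 7.14 and 9.01 for wild type and 8.62, 8.25, 8.52 and 8.08 for knockout on low fat, and 8.17, 8.12, 8.11 and 8.07 against 4.74, 6.16, 6.82 and 5.58 on high fat. Their mean level was 7.74 to 9.12 for wild type and 8.55 to 8.74 for knockout on low fat, and 8.15 to 9.41 against 6.64 to 7.71 on high fat. Leaving out 1 array moved the 7 to between 3 (without wild-type low fat replicate 1) and 10 (without wild-type low fat replicate 3). With the mean mesothelial level as a covariate 1110 genes were called in the average in place of 2566, of which 1010 were among the 2566.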

How the data were processed

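Expression was measured with 1-colour Affymetrix arrays in 16 samples, 4 in each of 4 groups taken from the labels. The authors deposited log2 values. The submitters' processing notes name GCRMA (version 2.20.0) and R (version 2.11.1). GCRMA removes background by probe sequence and quantile-normalises, which presses unexpressed genes to low values and can inflate a difference from them. Of 45037 probe sets, 34945 had 1 gene symbol, 932 several and 9160 none, and only the first were used, with the probe set of the highest mean for each gene. A group-means model was fitted with limma 3.58.1 (R 4.3.3), the mean of both knockout differences was its main contrast, and p-values were adjusted over 12078 genes by Benjamini-Hochberg.

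Genes named are Sirt1, the 12 largest rises and 12 largest falls with separate arrays on each diet, up to 3 called genes with the smallest p per list (up to 5 for stress lists), and 4 interaction genes each way. Other list members named were chosen after their values were seen. The members and lists were chosen with earlier results of these data known. The script was tested on simulated data. Alternatives covered normalisation, filters, probe set choice, covariates, array weights, a replicate block and left-out arrays. Promoters came from RefSeq (GRCm38.p6). No 2 arrays were identical.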

Additional observations from a re-analysis of the deposited data

Results flagged for a closer look

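Each of the 109 genes named by rule was looked at in its 4 groups of 4 arrays for a single array far from the rest of its group, by the 95% critical value of Dixon's gap test. Of 436 groups 24 (5.5%) had such an array, and chance alone gives about 1 in 20. The array apart was Olr1 at 2.98 in wild-type low fat replicate 2 (others 2.41 to 2.49), Itgax at 5.25 in wild-type low fat replicate 1 (others 3.45 to 3.73) and Lipf at 8.12 in knockout high fat replicate 4 (others 7.29 to 7.39). Others were Pnpla3 at 8.20 in wild-type high fat replicate 3 (others 7.47 to 7.57), Flvcr2 at 8.27 in wild-type low fat replicate 1 (others 6.82 to 6.91) and Gprin3 at 10.81 in wild-type high fat replicate 1 (others 10.10 to 10.22). Further such values were Dennd2d at 7.73 in knockout low fat replicate 4 (others 6.57 to 6.73), Ddit3 at 8.24 in knockout low fat replicate 4 (others 7.79 to 7.83) and Atf6 at 9.50 in knockout high fat replicate 3 (others 9.28 to 9.31). A single array also stood out for Os9 at 9.92 in wild-type low fat replicate 2 (others 10.12 to 10.13), Chac1 at 8.88 in wild-type high fat replicate 1 (others 7.86 to 8.02) and Cryab at 12.80 in wild-type high fat replicate 3 (others 12.68 to 12.69). The next were Phlda3 at 10.96 in knockout low fat replicate 4 (others 10.04 to 10.13), Mxi1 at 10.24 in knockout high fat replicate 4 (others 10.06 to 10.08) and Lcn2 at 10.09 in knockout high fat replicate 2 (others 10.92 to 11.03). Also apart were Sfrp5 at 11.68 in wild-type high fat replicate 1 (others 12.07 to 12.14), Insr at 10.99 in wild-type low fat replicate 2 (others 11.35 to 11.42) and Irs1 at 8.71 in knockout high fat replicate 1 (others 9.40 to 9.50). More were Aurkb at 6.76 in wild-type high fat replicate 2 (others 5.83 to 5.89), Egr2 at 11.30 in knockout high fat replicate 1 (others 10.20 to 10.35) and Kit at 3.37 in knockout high fat replicate 1 (others 4.42 to 4.62). The last were Tek at 9.20 in knockout high fat replicate 1 (others 9.92 to 9.95), Bnc1 at 7.14 in wild-type low fat replicate 3 (others 9.01 to 9.33) and Upk3b at 10.26 in wild-type low fat replicate 3 (others 11.36 to 11.55).

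For 34 of the 109 genes the knockout effect differed between the diets by the limma interaction test (adjusted p under 0.05). The values are the high fat minus the low fat knockout difference in log2 units. Positive values were those of Acot3 4.30, Drd1 3.33, Lcn2 3.00, Ccl3 2.90, Nr4a3 2.76, Olr1 2.48, Nrcam 2.30, Npc1 2.19 and Rassf6 2.11. Smaller positive ones were Ccl4 1.56, Bub1 1.53, Hs3st3b1 1.43, Slc43a1 1.28, Cadps2 1.03, Elane 0.99 and Clec7a 0.87. Negative values were those of Ptchd4 -4.64, Klf14 -4.46, Sfrp5 -4.19, Mest -3.45, Abat -3.01, Col15a1 -2.94, Gsta4 -2.25, Bnc1 -1.99 and Gzma -1.91. Smaller negative ones were Dio2 -1.66, Lipf -1.64, Upk3b -1.52, Col6a2 -1.45, Phlda3 -1.33, Lep -1.15, Cryab -0.85, Ndrg1 -0.77 and Dnajb4 -0.55.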

How the results depend on the processing

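The knockout effect averaged over both diets was called for 2566 genes. The knockout effect in the same direction on each diet was called for 940, the diet by genotype interaction for 1569, and stress genes with a knockout effect numbered 31. Without the 5 muscle arrays the counts were 1445, with 424 interactions and 15 stress genes, and 1293 of the 2566 were shared. Without these and wild-type high fat replicate 4, a choice made after seeing the data, they were 1138, 501, 307 and 10. With the mesothelial mean as a covariate they were 1110, 493, 388 and 13. With all arrays kept and the mean level of the muscle genes as the covariate 2468 genes were called, 2384 of them among the 2566. Array weights gave 2481 interactions and 47 stress genes. Testing each probe set and taking the smallest p of each gene gave 51 stress genes. An adjusted p under 0.01 left 1397, with 576 interactions and 15 stress genes, and a 1.5-fold minimum left 1022, 552 on each diet and 14 stress genes. Leaving out 1 array gave 2102 (without knockout low fat replicate 1) to 2901 (without wild-type low fat replicate 2) averaged calls, 767 to 1020 on each diet, 1098 to 2382 interactions and 25 to 32 stress genes. Dnajb4 reversed with its probe sets averaged (-0.01) and with each tested (-0.43). There were 35 settings, and of the 106 named genes with a call 60 kept it in every setting that tested them. Stricter filters left some of these genes, such as Ccl4, untested. The cause of these changes was not tested.

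Same-numbered arrays did not deviate together in every pair of groups, with correlations of -0.321 to 0.199 over 24 pairs and 5 above 0.1. Whether same-numbered arrays were handled together cannot be told from these correlations. With the replicate number as a block, the knockout effect averaged over both diets was called for 2452 genes, the knockout effect in the same direction on each diet for 900 and the diet by genotype interaction for 1390, and stress genes with a knockout effect numbered 29.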
